A study of Homo sapiens with 44 samples.

Results

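The translation initiation factor genes of the deposited table were taken as all rows whose symbol begins with EIF and a digit from 1 to 6, which gave 60 of 23367 gene rows. They hold the factors EIF1 to EIF6, the kinases that phosphorylate eIF2 (EIF2AK rows), the eIF4E-binding proteins (EIF4EBP rows) and 4 Argonaute genes that the table lists under their older EIF2C symbols. After the filter on low counts, 54 of the 60 were tested among 14534 genes. The 6 others were EIF4A1 and EIF3CL with 0 counts in all 44 libraries, and EIF3C, EIF3IP1, EIF4E1B and EIF4EBP3 with 5, 25, 24 and 30 counts in total. EIF4A1 encodes the main helicase of the cap-binding complex, and a separate row for the read-through gene SENP3-EIF4A1 had 404 counts in total, so EIF4A1 was not measured by this table.

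The libraries came from IMR5/75, a MYCN-amplified human neuroblastoma cell line that carries a tetracycline-inducible short hairpin RNA (shRNA) against MYCN. All cells spent 18 h in thymidine, which stops them where DNA synthesis begins, and were collected 0, 3, 6, 8, 10, 12, 14, 16, 18, 20 and 22 h after it was washed out. Cells with the shRNA induced by tetracycline (Tet plus) and cells with the same construct and no tetracycline (Tet minus) gave 22 libraries each, 2 biological replicates for each arm and time. The comparison addresses how these genes are expressed along the cell cycle once MYCN is lowered. A library with the drug and a control hairpin, or with the drug and no hairpin, was not among the samples, so the drug and other targets of the hairpin cannot be told apart from lowered MYCN. In bulk RNA, fewer cells of a type and less RNA per cell cannot be told apart either.

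Translation starts when eIF2 brings the initiator tRNA to the small ribosomal subunit together with EIF1, EIF1A, EIF3 and EIF5, while eIF4F, built from the cap-binding EIF4E, the scaffold EIF4G and the helicase EIF4A, recruits the mRNA. EIF2B recharges eIF2 with GTP, and phosphorylation of eIF2 by the EIF2AK kinases blocks that step. MYC proteins are known to raise many genes of ribosome production and translation, and bind the canonical E-box CACGTG with their partner MAX.

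The windows below run from 250 bases before to 50 bases after the RefSeq gene start (GRCh38.p14, a later build than the one the counts were made on, used for sequence only). They show the 3 genes with the smallest adjusted p-values among the lower members whose window holds CACGTG, printed in capitals, and AGO4 (row EIF2C4), chosen after its values were seen as the member with the highest fold change, whose window holds none. EIF2B3, the gamma subunit of EIF2B, starts on the minus strand at chr1:44986546-44986845, with the motif 179 bases before the start. EIF4G1, the main eIF4F scaffold, is on the plus strand at chr3:184314356-184314655, the 1 of its 3 listed windows with the motif, here 144 and 67 bases before the start. EIF4A3, the helicase of the exon junction complex, is on the minus strand at chr17:80147079-80147378, with the motif 121 bases before the start. AGO4, an Argonaute protein that binds small RNAs, is on the plus strand at chr1:35807766-35808065.
EIF2B3: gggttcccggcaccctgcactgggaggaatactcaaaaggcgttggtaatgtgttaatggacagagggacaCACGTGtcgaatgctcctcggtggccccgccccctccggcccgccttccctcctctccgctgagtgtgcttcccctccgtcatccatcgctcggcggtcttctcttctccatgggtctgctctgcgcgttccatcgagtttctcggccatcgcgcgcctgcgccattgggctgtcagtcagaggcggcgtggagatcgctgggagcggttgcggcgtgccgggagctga
EIF4G1: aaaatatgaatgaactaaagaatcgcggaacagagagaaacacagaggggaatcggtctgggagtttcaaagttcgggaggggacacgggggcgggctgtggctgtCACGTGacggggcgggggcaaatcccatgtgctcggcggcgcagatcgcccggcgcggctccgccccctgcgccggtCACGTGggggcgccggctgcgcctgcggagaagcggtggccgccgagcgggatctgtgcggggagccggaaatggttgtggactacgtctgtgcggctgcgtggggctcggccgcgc
EIF4A3: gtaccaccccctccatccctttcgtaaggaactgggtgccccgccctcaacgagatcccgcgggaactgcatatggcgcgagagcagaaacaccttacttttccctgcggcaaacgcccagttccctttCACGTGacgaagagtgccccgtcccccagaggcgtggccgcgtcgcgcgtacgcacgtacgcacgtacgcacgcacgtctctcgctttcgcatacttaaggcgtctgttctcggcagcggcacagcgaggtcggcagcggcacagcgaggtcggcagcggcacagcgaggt
AGO4: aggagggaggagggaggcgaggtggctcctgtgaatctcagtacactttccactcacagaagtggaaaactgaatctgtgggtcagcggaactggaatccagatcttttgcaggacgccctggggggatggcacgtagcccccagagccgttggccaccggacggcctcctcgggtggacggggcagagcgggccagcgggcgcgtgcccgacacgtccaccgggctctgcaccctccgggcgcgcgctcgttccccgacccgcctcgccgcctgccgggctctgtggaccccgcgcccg
The motif reads the same on both strands and was searched without overlap to any other. It stood in the windows of 12 of the 49 members with a RefSeq window (24.5%), against 2396 of 27305 genes with a window (8.77%), a set that includes noncoding and unexpressed genes. Among tested members it stood in 6 of 26 that were lower in Tet plus at 0 to 14 h (23.1%) and in 5 of 19 others (26.3%), so the lower members did not hold it more often than the rest. The other lower members with the motif were EIF4H, EIF3K and EIF4E. Among the remaining tested members, the motif stood in the window of EIF1B, which was higher in Tet plus. It also stood in those of EIF2AK2, EIF3F, EIF4B and EIF5A2, which did not pass the test.

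MYCN itself was at 938 to 1213 CPM (median 1002) in the 14 Tet plus libraries at 0 to 14 h, against 970 to 1479 CPM (median 1228) in the 14 Tet minus libraries. CPM are counts per 1000000 after edgeR's TMM scaling of library size. The ranges overlapped, and the log2 fold change was -0.27 with an SE of 0.046 and an adjusted p of 2.71e-05. At 16 to 22 h it was -0.26 (adjusted p = 0.000787). At single times it was always negative but passed the threshold only at 12 h (-0.45, adjusted p = 0.0343) and 16 h (-0.59, adjusted p = 0.000826). MYCN RNA differed least at 0 h (-0.08, adjusted p = 0.858), 8 h (-0.14, adjusted p = 0.635) and 22 h (-0.03, adjusted p = 0.889). Adjusted p-values here come from the quasi-likelihood test of edgeR, adjusted after Benjamini and Hochberg over all genes tested, unless another test is named. Gene counts, in units of 1000000, ran from 10.9 to 25.3 per library. From 16 h on, titles of Tet plus libraries follow a different form and name different lanes from those of Tet minus libraries. Arm and lane cannot be told apart there, and the labels do not say whether the Tet plus libraries came from another run. In those 8 libraries spike-in (ERCC) transcripts took 0.0543% to 0.376% of counts, against 1.13% to 3.43% in Tet minus libraries. Small nucleolar RNAs took 0.935% to 2.41% there, against 0.289% to 0.713% in Tet minus libraries. At 0 to 14 h same-numbered libraries of both arms share a lane number. Sums over cell type markers were taken per 1000000 gene counts without the TMM scaling. For the noradrenergic neuroblastoma markers they ran from 1413 to 2123 in Tet plus and from 954 to 1586 in Tet minus libraries at 0 to 14 h. Of these 11 markers 10 were above the filter, and TH was under 10 counts in every library. The 11 mesenchymal or Schwann-like markers summed to 251 to 565 in Tet plus against 238 to 452 in Tet minus libraries on the same scale. WWTR1, SOX10 and S100B were under 10 counts throughout. The replication gene MCM2 had a median of 455 CPM in Tet plus against 713 CPM in Tet minus libraries at those times, with 353 CPM in Tet plus against 841 CPM in Tet minus at 16 to 22 h. The mitotic cyclin CCNB1 was at a mean of 268 CPM in Tet plus against 404 CPM in Tet minus libraries at 6 h, and at 614 CPM in Tet plus against 595 CPM in Tet minus libraries at 10 h. Another cyclin, CCNE2, was at a mean of 73.9 CPM in Tet plus against 73.0 CPM in Tet minus libraries at 3 h. It was at 17.0 CPM in Tet plus against 35.2 CPM in Tet minus libraries at 12 h, and at 20.0 CPM in Tet plus against 55.1 CPM in Tet minus libraries at 14 h. The part of cell state and cycle stage in the results on EIF genes was not tested.

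Averaged over 0 to 14 h, most initiation factor genes were modestly lower in Tet plus cells. Of the 54 tested members 31 were lower, against 21.3% of all genes, and 4 were higher, against 20.1% of all genes. The 4 were EIF2C4, EIF2AK3, EIF4G3 and EIF1B. The member median was a log2 fold change of -0.17, against 0.01 over all genes, and 43 of 54 members had a negative value. Scaling to the ERCC rows instead moved the median of all genes to 0.13 and that of the members to -0.05, with 44 of 54 members below the median of all genes and 0 members past the threshold in either direction, where 48 of 14534 genes passed it. The members spanned -0.50 to 0.48, so the differences were well below 2-fold. In 28 members the Tet plus mean was the lower one at each of the 7 times, as in 18.1% of all genes. The libraries still overlapped: all 14 Tet plus libraries lay below all 14 Tet minus libraries in 0 members (1.09% of genes), and above them in 1 member, EIF2C4 (0.661% of genes). These p-values treat libraries of different times as independent samples.

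**Figure D1:**
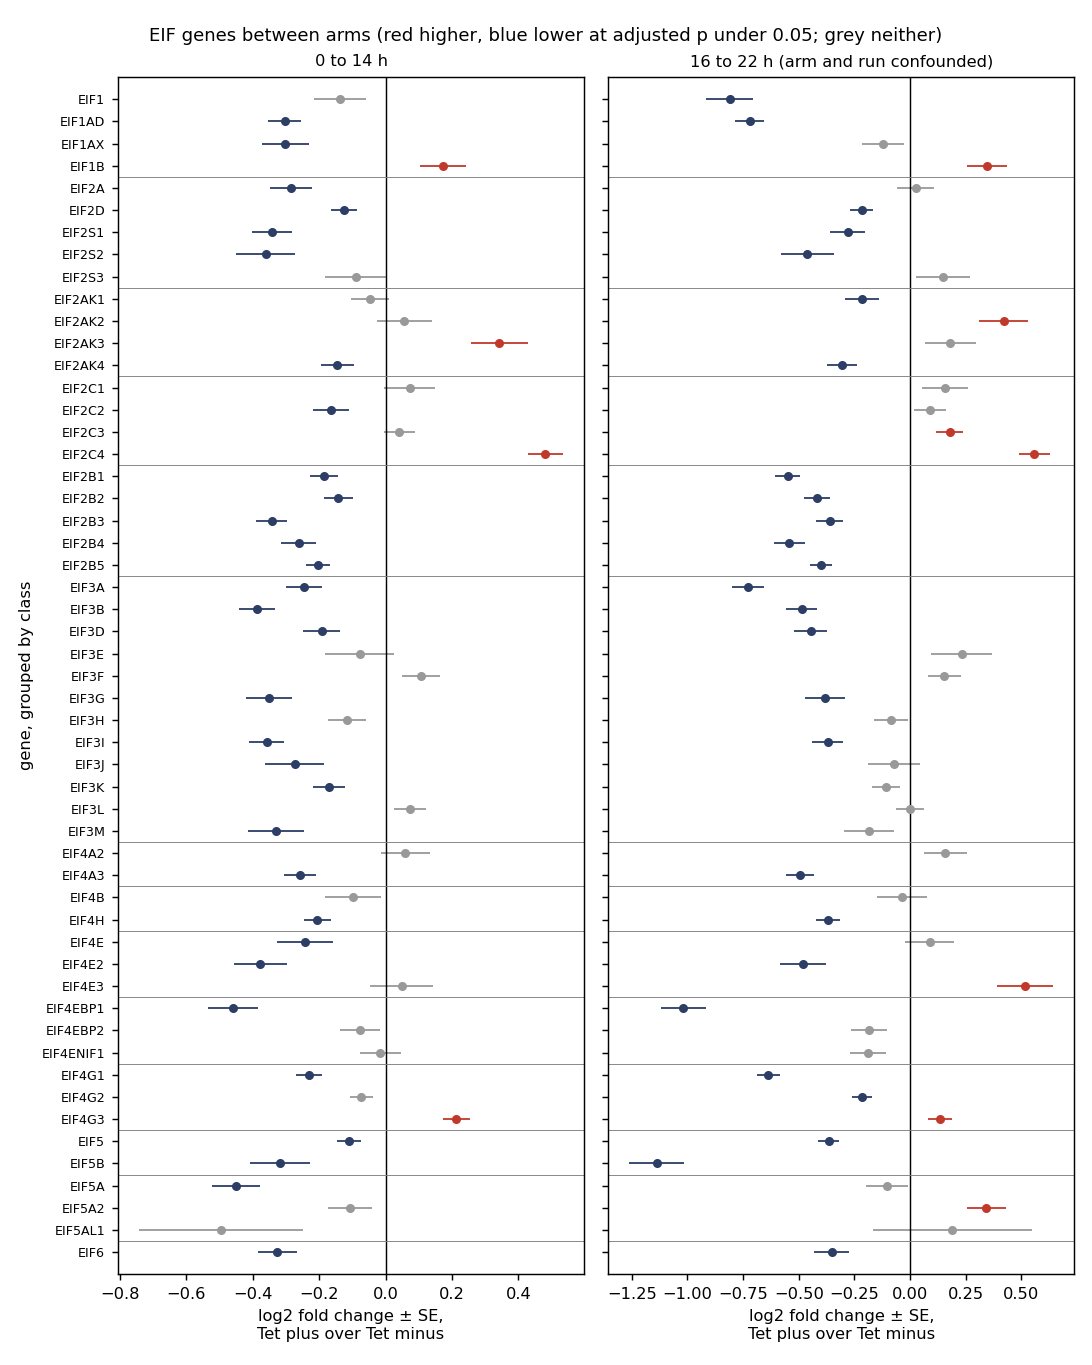
Log2 fold change (x axis, Tet plus over Tet minus, bars are SE) of each tested EIF gene with a level shown, for the mean of 0 to 14 h (left) and of 16 to 22 h (right, on a wider scale), in rows by class. Blue points are lower and red points higher in Tet plus at adjusted p under 0.05, grey points are neither; all 5 EIF2B rows are blue in both panels.

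The subfamilies differed in how many members were lower. All 5 EIF2B subunit genes were lower at 0 to 14 h, with log2 fold changes of -0.34 to -0.14. EIF2B3 had 63.7 to 88.4 CPM (median 80.8) in Tet plus libraries and 80.3 to 119 CPM (median 98.5) in Tet minus libraries. Its pairs of libraries did not overlap at any of the 7 times, although the ranges over all times did, and its log2 fold change was -0.34 (SE 0.046, adjusted p = 9.84e-07). EIF2B5, the catalytic epsilon subunit, had 97.1 to 127 CPM (median 114) in Tet plus libraries and 117 to 143 CPM (median 128) in Tet minus libraries. It too was apart at all 7 times (log2 fold change -0.20, SE 0.037, adjusted p = 8.49e-05). EIF2B4, the delta subunit, had 39.2 to 57.1 CPM (median 46.6) in Tet plus libraries and 45.1 to 62.9 CPM (median 56.0) in Tet minus libraries, with the pairs apart at 6 of 7 times (log2 fold change -0.26, SE 0.052). EIF2B1 and EIF2B2, the alpha and beta subunits, were lower by smaller amounts (log2 fold changes -0.19 and -0.14).

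The substrate of EIF2B gave a similar picture for its alpha and beta subunits. EIF2S1, the alpha subunit that the kinases phosphorylate, had 146 to 194 CPM (median 161) in Tet plus libraries and 167 to 282 CPM (median 205) in Tet minus libraries, with a log2 fold change of -0.34 ± 0.060 (SE) and an adjusted p of 4.55e-05. The pairs were apart at 4 of 7 times. EIF2S2, the beta subunit, had 123 to 177 CPM (median 139) in Tet plus and 150 to 246 CPM (median 184) in Tet minus libraries (log2 fold change -0.36, SE 0.090, adjusted p = 0.00201). EIF2S3, the gamma subunit that holds GTP and the tRNA, did not pass the test (log2 fold change -0.09, adjusted p = 0.460). EIF2A and EIF2D, which can deliver initiator tRNA without eIF2, were lower by -0.28 and -0.13 on the log2 scale (adjusted p = 0.000575 and 0.0113).

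The 4 eIF2 kinases did not share a direction. EIF2AK3 (PERK), the kinase of endoplasmic reticulum stress, had 41.1 to 71.6 CPM (median 58.0) in Tet plus libraries and 33.1 to 64.2 CPM (median 45.3) in Tet minus libraries. Its mean was the higher one at each of the 7 times but the pairs were apart at only 2 of them (log2 fold change 0.34, SE 0.087, adjusted p = 0.00231). EIF2AK4 (GCN2), the kinase of amino acid shortage, had a log2 fold change of -0.15 (adjusted p = 0.0222), which leaving out any 1 of 4 libraries ended: Tet plus replicate 1 at 0, 6 or 8 h or Tet minus replicate 2 at 8 h, with an adjusted p of up to 0.0600 without the Tet plus library at 8 h. EIF2AK1 (HRI) and EIF2AK2 (PKR) had log2 fold changes of -0.05 and 0.06 and did not pass the test.

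Of the 12 tested EIF3 rows, which encode subunits of the large scaffold on the small ribosomal subunit and its loosely bound partner EIF3J, 8 were lower and 0 higher, with negative log2 fold changes in 10. EIF3C, with 5 counts in total, was not tested, nor were EIF3CL and EIF3IP1, so nothing is read about them. EIF3B, a core subunit, had 359 to 506 CPM (median 435) in Tet plus libraries and 495 to 619 CPM (median 564) in Tet minus libraries. Only the ends of these ranges met, the pairs were apart at all 7 times, and the log2 fold change was -0.39 (SE 0.053, adjusted p = 1.73e-06). EIF3I and EIF3G, which sit beside EIF3B, had log2 fold changes of -0.36 (adjusted p = 5.07e-06) and -0.35 (adjusted p = 0.000166). EIF3I had 251 to 382 CPM (median 346) in Tet plus and 365 to 501 CPM (median 428) in Tet minus libraries. EIF3G had 98.3 to 163 CPM (median 139) in Tet plus and 148 to 209 CPM (median 170) in Tet minus libraries. EIF3A, EIF3D, EIF3J, EIF3K and EIF3M were also lower, by -0.33 to -0.17. EIF3E, EIF3F, EIF3H and EIF3L did not pass the test, with log2 fold changes of -0.08, 0.11, -0.12 and 0.07. EIF3H passed it with the replicate number as a block (-0.12, adjusted p = 0.0148), and also without Tet plus replicate 2 at 0, 3 or 10 h (adjusted p down to 0.0448). EIF3F passed as higher without Tet minus replicate 1 at 0 h (0.15, adjusted p = 0.0269).

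Of the 3 scaffold genes of the EIF4G family, EIF4G1 was lower, EIF4G3 higher and EIF4G2 did not pass the test. EIF4G1 had 600 to 769 CPM (median 709) in Tet plus libraries and 719 to 951 CPM (median 834) in Tet minus libraries, and its log2 fold change was -0.23 ± 0.040 (SE, adjusted p = 3.80e-05). EIF4G3, a second scaffold of the same kind, had 62.3 to 101 CPM (median 79.3) in Tet plus libraries and 51.8 to 79.2 CPM (median 67.1) in Tet minus libraries. The Tet plus mean was the higher one at each of the 7 times (log2 fold change 0.21, SE 0.041, adjusted p = 0.000153). EIF4G2 (DAP5), a scaffold that lacks the EIF4E-binding part, had a log2 fold change of -0.07 (adjusted p = 0.103), with an adjusted p of 0.0460 without Tet plus replicate 2 at 0 h. EIF4A3 had 295 to 434 CPM (median 373) in Tet plus libraries and 419 to 506 CPM (median 446) in Tet minus libraries, was apart at all 7 times and was lower (-0.26, SE 0.048, adjusted p = 9.98e-05). EIF4A2, the cytoplasmic helicase that was measured, was at 0.06 ± 0.074 (SE, adjusted p = 0.550). The helicase cofactor EIF4H was lower (-0.21, adjusted p = 0.000166), and its relative EIF4B was at -0.10 (adjusted p = 0.371).

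Of the 3 tested cap-binding EIF4E genes 2 were lower, and of the 3 tested genes for proteins that bind EIF4E 1 was. EIF4E2, a cap-binding protein that represses translation, had 26.7 to 51.2 CPM (median 41.5) in Tet plus libraries and 37.7 to 63.4 CPM (median 56.6) in Tet minus libraries (log2 fold change -0.38, SE 0.079, adjusted p = 0.000374). EIF4E was at -0.24 (adjusted p = 0.0212), a call that leaving out Tet minus replicate 2 at 6, 8 or 14 h ended (adjusted p of up to 0.0607, without the library at 14 h). EIF4E3 did not pass the test (0.05, adjusted p = 0.717). EIF4EBP1, the inhibitor that releases EIF4E when mTOR phosphorylates it, had 51.5 to 102 CPM (median 60.6) in Tet plus libraries and 72.8 to 116 CPM (median 84.8) in Tet minus libraries. One Tet plus library at 0 h stood at 102 CPM among the Tet minus values, and the log2 fold change was -0.46 (SE 0.075, adjusted p = 1.91e-05). EIF4EBP2 and EIF4ENIF1, the transporter that carries EIF4E into the nucleus, were at -0.08 and -0.02 and did not pass the test.

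**Figure D2:**
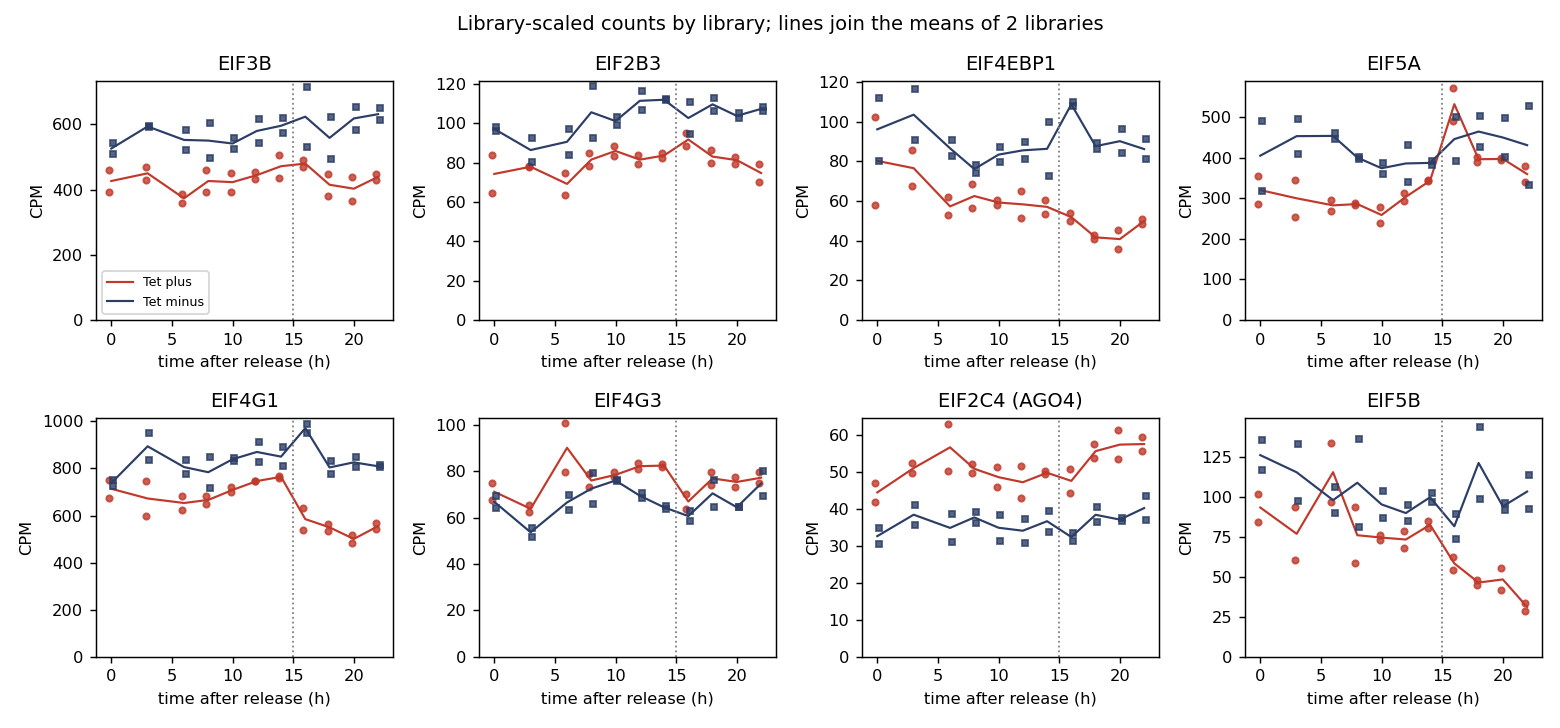
CPM after library-size scaling (y axis, from 0) against hours after release (x axis) for 8 genes. Circles are Tet plus and squares Tet minus libraries, and lines join the means of 2 libraries. The dotted line marks where the title form and lanes of the Tet plus libraries change. EIF3B, EIF2B3, EIF4EBP1 and EIF4G1 run lower and EIF2C4 higher in Tet plus throughout, and EIF5B separates most after 14 h.

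Of the 5 tested EIF1 rows, 2 were lower and 1 higher, while both EIF5 rows and EIF6 were lower. EIF1AX, which steadies the scanning ribosome, had 102 to 144 CPM in Tet plus against 129 to 210 CPM in Tet minus libraries (log2 fold change -0.30, SE 0.071, adjusted p = 0.00121). Its sequence is close to that of a Y-linked copy, EIF1AY, a tested member for which no level is given, so the counting may have split reads between them. EIF1AD had 25.4 to 34.5 CPM (median 29.4) in Tet plus libraries and 32.4 to 41.5 CPM (median 35.6) in Tet minus libraries, apart at all 7 times (-0.30, SE 0.049, adjusted p = 1.69e-05). EIF1, which keeps the ribosome from starting at wrong codons, was at -0.14 (adjusted p = 0.172), while its paralog EIF1B was higher (0.17, adjusted p = 0.0434). The EIF1B call was lost on leaving out any 1 of 16 libraries among the 28 (adjusted p of up to 0.102, without Tet plus replicate 1 at 14 h) and without the filter on low counts (adjusted p = 0.0813). EIF5, which makes eIF2 hydrolyse its GTP, was at -0.11 (adjusted p = 0.0176), and EIF5B, the GTPase that joins the subunits, was at -0.32 (adjusted p = 0.00632). EIF6, which keeps the large subunit free until it is ready, had 70.3 to 118 CPM (median 103) in Tet plus libraries and 105 to 151 CPM (median 120) in Tet minus libraries (-0.33, SE 0.059, adjusted p = 6.59e-05).

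EIF5A, which helps ribosomes through stalling sequences and needs the amino acid hypusine, had 240 to 353 CPM (median 291) in Tet plus libraries and 318 to 496 CPM (median 400) in Tet minus libraries. The pairs were apart at 6 of 7 times (log2 fold change -0.45, SE 0.072, adjusted p = 1.58e-05). Its paralog EIF5A2 was at -0.11 (adjusted p = 0.198). EIF5AL1, a near copy of EIF5A, had at most 1.81 CPM at 0 to 14 h, and a log2 fold change of -0.50 with an SE of 0.25 did not pass the test (adjusted p = 0.112). Reads of EIF5A and EIF5AL1 may be shared between the rows.

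The 4 Argonaute rows are not initiation factors in function, since Argonautes silence mRNAs with small RNAs. AGO4 (EIF2C4) had 41.7 to 62.9 CPM (median 49.9) in Tet plus libraries and 30.5 to 41.1 CPM (median 35.9) in Tet minus libraries. It was the only member whose 28 early libraries did not overlap between arms (log2 fold change 0.48, SE 0.053, adjusted p = 5.01e-08). AGO2 (EIF2C2), the slicing Argonaute, was at -0.16 (adjusted p = 0.0168), and AGO1 and AGO3 (EIF2C1 and EIF2C3) were at 0.07 and 0.04 and did not pass the test.

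Ratios between paralogs within a library need no scaling between libraries and were compared by a 2-sided exact permutation test of arm labels within times, adjusted over the 5 pairs that could be formed. The log2 ratio of EIF4G1 to EIF4G3 averaged 3.18 ± 0.19 in Tet plus and 3.63 ± 0.22 in Tet minus libraries (SD, n = 14 each). The difference of -0.44 had the same sign at 7 of 7 times (exact permutation adjusted p = 3.57e-05). For EIF1 to EIF1B the ratio averaged 2.10 ± 0.20 in Tet plus and 2.41 ± 0.22 in Tet minus libraries (difference -0.31 at 7 of 7 times, exact permutation adjusted p = 0.00175). For EIF4EBP1 to EIF4EBP2 it averaged -0.91 ± 0.39 in Tet plus and -0.53 ± 0.22 in Tet minus libraries (difference -0.38 at 7 of 7 times, exact permutation adjusted p = 0.00820). The ratio of EIF5A to EIF5A2 averaged 4.23 ± 0.28 in Tet plus and 4.57 ± 0.21 in Tet minus libraries (difference -0.34 at 5 of 7 times, exact permutation adjusted p = 0.00381). In each of these 4 pairs the paralog named first was relatively lower in Tet plus. EIF4E to EIF4E2 did not pass the test (difference 0.14, exact permutation adjusted p = 0.0825). With exchange only between same-numbered libraries it did (exact permutation adjusted p = 0.0436), and so it did without Tet plus replicate 1 at 0 h, replicate 2 at 6 or 8 h, or Tet minus replicate 2 at 14 h (exact permutation adjusted p = 0.0216 to 0.0498). A ratio shows that the pair changed unequally, and not which of the genes changed.

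**Figure D3:**
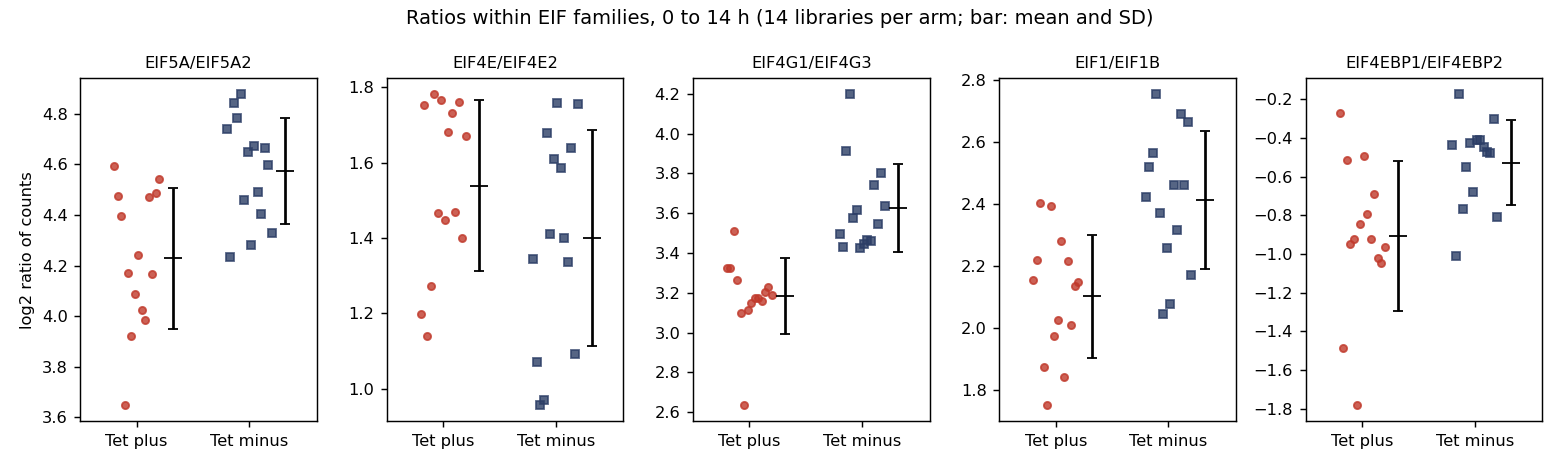
Log2 ratio of counts of 2 genes of a family (y axis, own scale in each panel) in the 14 Tet plus (circles) and 14 Tet minus (squares) libraries at 0 to 14 h, with mean and SD as bars. EIF4G1/EIF4G3 is lower in Tet plus by 0.44 on average, and EIF4E/EIF4E2 overlaps broadly.

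At single times, with 2 libraries in each arm, few members passed the test before 16 h. At 0, 8 and 10 h 0 members passed edgeR's test, against 1.57%, 3.43% and 3.4% of all genes. At those times 13, 17 and 8 members had an unadjusted p under 0.05, and DESeq2 called 0, 1 and 1. Shares of all genes under these rules are not given for single times, so such counts are not read as high or low. At 3 h only EIF4G1 passed (2.72% of genes), with 745 and 600 CPM in Tet plus against 837 and 951 CPM in Tet minus libraries. At 6 h 9 members passed (7.09% of genes): EIF2B2, EIF2B3, EIF3B, EIF3I, EIF4A3, EIF5A and EIF6 were lower, and EIF2C4 and EIF4G3 higher. At 12 and 14 h EIF2B3 alone passed (4.19% and 5.37% of genes), with 79.3 and 83.7 CPM in Tet plus against 106.5 and 116 CPM in Tet minus libraries at 12 h. These calls rested on single libraries. The count at 6 h was 0 without Tet plus replicate 2 and 1 without Tet minus replicate 2. The call at 3 h ended without replicate 2 of either arm, and the count was 2 without Tet plus replicate 1. The call at 12 h ended without any 1 of its 4 libraries, and that at 14 h without any but Tet minus replicate 1. The count was 1 at 0 h without Tet plus replicate 1 and 2 at 8 h without Tet minus replicate 1. With the replicate number as a block the counts at 0, 3, 6, 8, 10, 12 and 14 h were 7, 5, 16, 8, 3, 8 and 9 of 54. The shares of all genes in that fit were 8.08%, 8.95%, 17.4%, 12.4%, 10.3%, 12.7% and 16.2%.

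**Figure D4:**
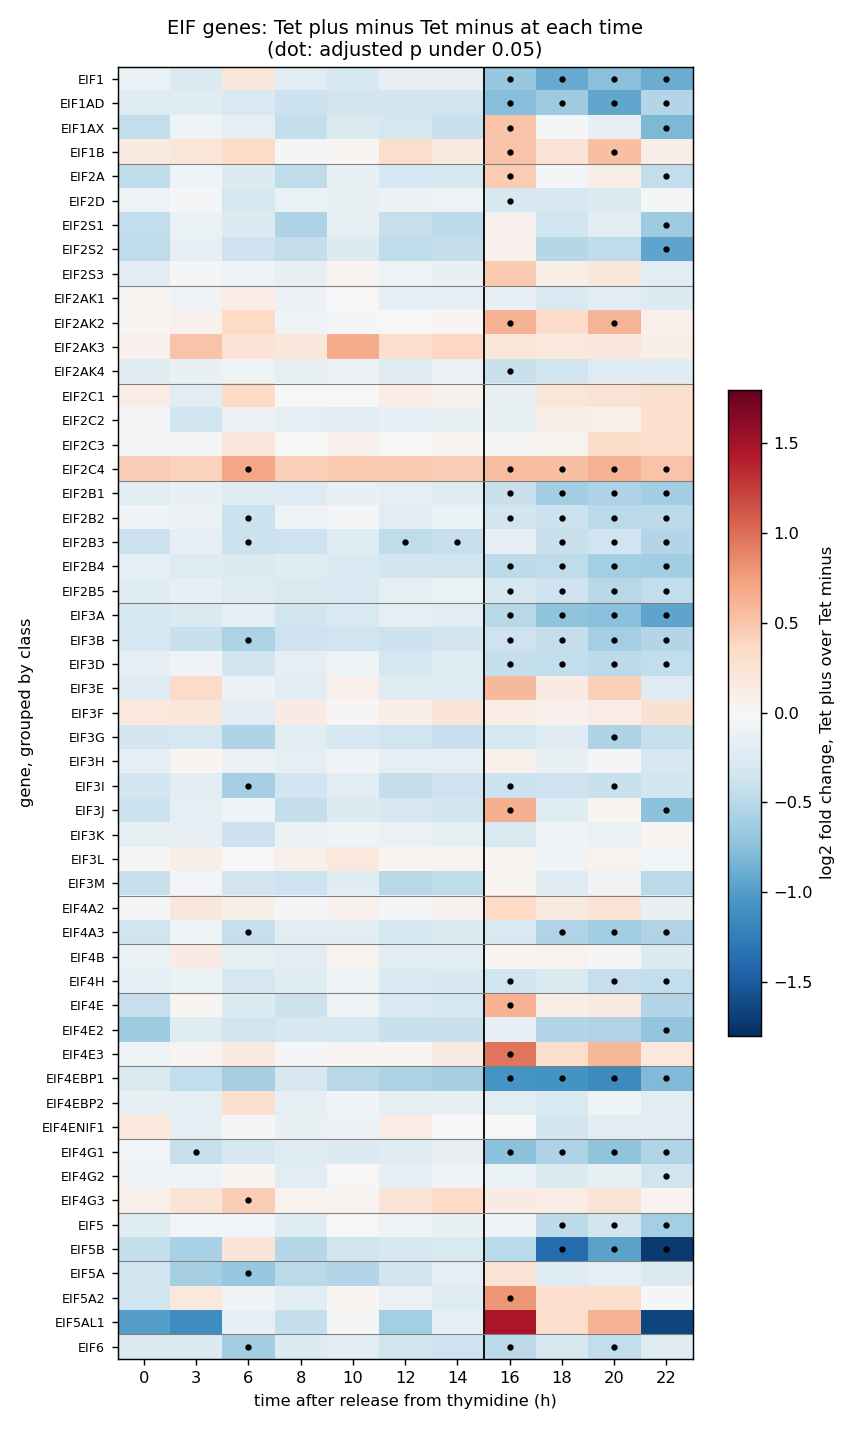
Log2 fold change (colour, Tet plus over Tet minus after library-size scaling, red higher and blue lower in Tet plus) of each tested EIF gene with a level shown (rows, by class) at each of 11 times (columns, hours after release). Dots mark adjusted p under 0.05. The vertical line marks the change in title form and lanes of the Tet plus libraries after 14 h. EIF2C4 is red and the EIF2B rows mostly blue at every time, and most dots stand at 16 to 22 h.

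Whether the arm difference depended on time was tested by an F test of 6 contrasts against the difference at 0 h. No member passed it: 0 by edgeR's test, 0 at an unadjusted p under 0.05, and 0 with the replicate block, against 0.0138% of genes without the block and 0.151% with it, with EIF4G3 at the smallest unadjusted p (0.112). DESeq2 was not run for this test. Subfamily levels were also followed by time. Each level is the median over a subfamily's genes of log2(CPM + 1) after subtracting the gene's mean over all 44 libraries, and the difference is Tet plus minus Tet minus. For EIF2B it lay between -0.31 and -0.11 and was negative at 7 of 7 times, for EIF3 between -0.32 and -0.10 at 7 of 7, and for EIF4 between -0.19 and -0.11 at 7 of 7. EIF4 here includes the genes for proteins that bind EIF4E. For EIF1 (without EIF1AY), EIF5 (here with the EIF5A rows) and EIF6 the difference was also negative at 7 of 7 times. EIF2, which here includes the kinases and Argonautes, was negative at 5 of 7 times, between -0.15 and 0.08. The lowest of these differences was -0.62, for EIF6 at 6 h.

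**Figure D5:**
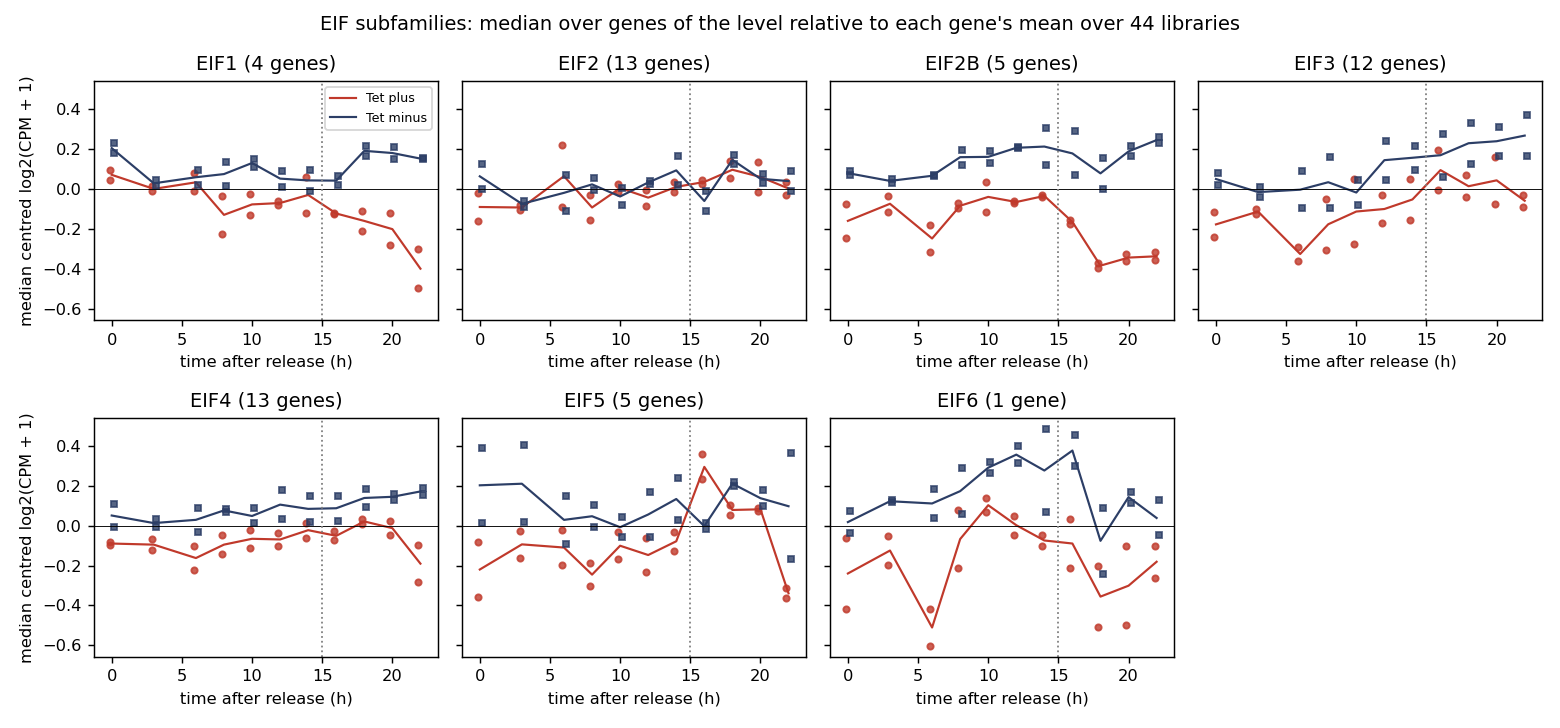
Median over a subfamily's genes of log2(CPM + 1) relative to each gene's mean over 44 libraries (y axis) against hours after release (x axis); circles are Tet plus and squares Tet minus libraries, and lines join the means of 2. EIF2B, EIF3, EIF4 and EIF6 run lower in Tet plus at all times from 0 to 14 h, while the EIF2 lines cross.

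The share of members that changed along the course was not above that of all genes in either arm. In Tet plus cells 4 members passed the F test of the course from 0 to 14 h (10.4% of genes), namely EIF4G2, EIF2D, EIF4G3 and EIF4EBP2, and in Tet minus cells 4 (14.5% of genes), namely EIF4G2, EIF4G3, EIF2D and EIF4A2. EIF4G2 had 859 and 994 CPM at 0 h and 1281 and 1205 CPM at 14 h in Tet plus libraries, and 931 and 1008 CPM at 0 h and 1247 and 1346 CPM at 14 h in Tet minus libraries (adjusted p = 0.00343 in Tet plus and 0.00284 in Tet minus). EIF2D had 46.0 and 45.7 CPM at 0 h and 58.1 and 58.3 CPM at 14 h in Tet plus libraries (adjusted p = 0.0119), and 50.03 and 47.7 CPM at 0 h and 63.9 and 60.03 CPM at 14 h in Tet minus libraries (adjusted p = 0.0396). Both genes ended above their level at 0 h in each arm. With the replicate block 12 members passed in Tet plus (25.9% of genes) and 11 in Tet minus (34.3% of genes). Without 1 library the counts ran from 1 to 5 in Tet plus, where 8 of 14 libraries moved it by over 1.5 times, and from 1 to 4 in Tet minus, where 9 of 14 did. The lowest count in Tet plus came without replicate 2 at 6 h and in Tet minus without replicate 1 at 0 h or replicate 2 at 3 h. Lane numbers change along the course, and their part in it was not tested.

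Between times that share lane numbers, 0 members passed edgeR's test for 6 against 0 h in Tet plus (2.5% of genes) and Tet minus (2.35%), and 0 for 12 against 8 h in Tet plus (0.22%) and Tet minus (0.833%). At an unadjusted p under 0.05 these 4 comparisons had 5, 2, 2 and 2 members, DESeq2 called 0 in each, and the replicate block gave 1 in each. With the block 8.59%, 6.31%, 0.812% and 1.93% of all genes passed. Shares of all genes at an unadjusted p or by DESeq2 are not given for these comparisons or for 22 against 16 h. The count for 6 against 0 h in Tet plus was 1 without Tet plus replicate 1 at 6 h or replicate 2 at 0 h. For 22 against 16 h, 4 members were lower at 22 h in Tet plus (7.24% of genes), EIF1AX, EIF3J, EIF5AL1 and EIF5B, and 0 passed in Tet minus (1.64%), where 11 had an unadjusted p under 0.05 and DESeq2 called 1. EIF5B had 33.4 and 28.9 CPM at 22 h and 62.5 and 54.3 CPM at 16 h in Tet plus libraries (log2 fold change -0.91, adjusted p = 0.0266). EIF1AX had 106 and 96.7 CPM at 22 h and 190 and 204 CPM at 16 h (-0.96, adjusted p = 0.00304). DESeq2 called 7 members in Tet plus, and the replicate block gave 15 in Tet plus (18.3% of genes) and 5 in Tet minus (12.3% of genes). The count of 4 was 0 without Tet plus replicate 2 at 16 or at 22 h and 1 without Tet plus replicate 1 at 22 h. The difference between the arms in this change was not tested.

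At 16 to 22 h arm and lane cannot be told apart. There 26 members were lower in Tet plus (26.8% of genes) and 7 higher (26.3% of genes), with a member median of -0.19, against 0.02 over all genes. ERCC scaling put all 54 members higher, and 14510 of all 14534 genes, since it moved the median of all genes to 4.40. The members' own median was then 4.20, and 36 of 54 were below the median of all genes. With the replicate block 29 members were lower and 11 higher, where 30.5% of all genes were lower and 32.1% higher. In all, 23 members were lower in both periods, against 15.6% of genes. In 15 members all 8 Tet plus libraries lay below all 8 Tet minus libraries, against 9.52% of genes.

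The genes named from these late times fall outside the naming rule and were chosen after their values were seen. EIF5B had 28.9 to 62.5 CPM (median 46.4) in Tet plus libraries and 74.0 to 144 CPM (median 94.6) in Tet minus libraries, without overlap (log2 fold change -1.14, SE 0.12, adjusted p = 1.65e-08). EIF4EBP1 had 36.1 to 53.9 CPM (median 47.1) in Tet plus libraries and 81.2 to 110 CPM (median 90.1) in Tet minus libraries, also without overlap (-1.02, SE 0.10, adjusted p = 3.48e-09). EIF1 had 45.3 to 62.7 CPM (median 56.2) in Tet plus libraries and 82.2 to 109 CPM (median 94.0) in Tet minus libraries (-0.81, SE 0.11, adjusted p = 3.98e-07). EIF3A, the largest EIF3 subunit, EIF1AD and EIF4G1 were also apart in all 16 libraries (log2 fold changes -0.73, -0.72 and -0.64). The 5 EIF2B genes were lower by -0.55 to -0.36. EIF5A, lower before, was at -0.10 (adjusted p = 0.374).

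The 7 higher members at 16 to 22 h were EIF2C4 (0.56), EIF4E3 (0.52), EIF2AK2 (0.42), EIF1B (0.35), EIF5A2 (0.34), EIF2C3 (0.18) and EIF4G3 (0.14). EIF2C4 had 44.2 to 61.1 CPM (median 54.6) in Tet plus libraries and 31.3 to 43.4 CPM (median 36.7) in Tet minus libraries, and again did not overlap (adjusted p = 2.25e-07). The EIF4G3 call (adjusted p = 0.0385) was lost on leaving out any 1 of 9 libraries among the 16 (adjusted p of up to 0.130, without Tet minus replicate 2 at 18 h) and without the filter on low counts (adjusted p = 0.0986). The EIF2C3 call (adjusted p = 0.0160) ended without Tet plus replicate 1 at 16, 20 or 22 h or Tet minus replicate 2 at 18 h (adjusted p of up to 0.0901, without Tet plus replicate 1 at 20 h). EIF2AK3 did not pass (0.18, adjusted p = 0.187), but did with the replicate block (adjusted p = 0.00117).

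By single times, 25 members passed at 16 h (27% of genes), 16 at 18 h (18.7%), 22 at 20 h (23.9%) and 24 at 22 h (28.4%). At 16 h 16 were lower and 9 higher, among them EIF4E3 (0.97), EIF5A2 (0.80), EIF3J (0.63) and EIF4E (0.62). At 22 h 23 were lower and 1, EIF2C4, higher, with EIF5B at -1.73. CCNB1 had 124 and 116 CPM in Tet plus against 305 and 346 CPM in Tet minus libraries at 22 h, while at 16 h it had 223 and 215 CPM in Tet plus against 154 and 181 CPM in Tet minus libraries. The part of this stage difference in the late results was not tested. EIF1AX was higher at 16 h (0.52) and lower at 22 h (-0.81), and whether the difference between arms changed between these times was not tested. Leaving out 1 library gave 5 to 15 members at 16 h, where any 1 of the 4 libraries moved the count by over 1.5 times, and 8 to 15, 12 to 20 and 15 to 23 at 18, 20 and 22 h. The count fell by over 1.5 times at 18 h without any but Tet minus replicate 1 (8 or 9), at 20 h without any but Tet plus replicate 2 (12 or 14) and at 22 h without Tet minus replicate 2 (15).

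Other translation genes were read from lists chosen with earlier results of these data known, at 0 to 14 h, where 21.3% of all genes were lower and 20.1% higher. Of 16 tested partners of initiation, 7 were lower and 2 higher. ABCE1, which recycles ribosomes, was at -0.55 (adjusted p = 1.79e-06), the poly(A)-binding PABPC4 at -0.36 (adjusted p = 4.60e-08) and BZW2, an eIF5 mimic, at -0.37 (adjusted p = 1.82e-06). The higher ones were PAIP2B, which holds poly(A)-binding protein away from mRNA (0.84, adjusted p = 1.10e-08), and PDCD4, which blocks EIF4A (0.50, adjusted p = 0.0293); without any 1 of 12 of the 28 libraries only 1 was called. Of 7 tested genes of the response to eIF2 phosphorylation, 2 were lower and 2 higher, shares near those of all genes. The phosphatase subunit PPP1R15A (0.38, adjusted p = 0.000188) and DDIT3 (0.31, adjusted p = 0.00278) were higher, and GCN1L1, which activates GCN2 (-0.24, adjusted p = 0.000245), and ATF4 (-0.19, adjusted p = 0.0169) were lower. The ATF4 call ended without Tet minus replicate 1 at 0 h (adjusted p = 0.0632) or Tet plus replicate 1 at 8 h.

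Of 11 genes of mTOR and MNK signalling to EIF4E, 2 were lower and 2 higher, also near the shares of all genes. The mTOR inhibitor TSC1 (0.34, adjusted p = 2.18e-05) and the EIF4E kinase MKNK1 (0.18, adjusted p = 0.000514) were higher, and MLST8 (-0.29, adjusted p = 0.0107) and AKT1S1 (-0.31, adjusted p = 0.0114), both parts of mTOR complexes, were lower. With the replicate block 4 were higher, in a fit where 3856 of 14534 genes were higher. Of the pair that makes hypusine on EIF5A, DOHH was lower (-0.49, adjusted p = 3.56e-05), with 15.1 to 23.9 CPM in Tet plus against 19.9 to 35.4 CPM in Tet minus libraries, and DHPS was at 0.08 (adjusted p = 0.453). Of 10 tested genes of cytosolic elongation and termination, 6 were lower and 0 higher, among them the release factor ETF1 (-0.38, adjusted p = 7.34e-07) and the kinase EEF2K (-0.34, adjusted p = 9.16e-07). Of 8 mitochondrial translation factors, 4 were lower and 0 higher, among them the elongation factor TUFM (-0.34, adjusted p = 2.15e-05). The list medians were -0.12 for initiation partners, -0.08 for the response to eIF2 phosphorylation, -0.24 for elongation and termination, -0.14 for mitochondrial factors and -0.20 for the pair of hypusine genes, against 0.01 over all genes. The median of the mTOR and MNK genes was -3.1e-05.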

How the data were processed

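RNA of 44 libraries of a human neuroblastoma line was sequenced after depletion of ribosomal RNA with a directional kit, per the labels' protocols. The authors deposited raw counts of reads for each gene. Alignment and counting involved TopHat2 2.0.5, HTSeq and hg19, per the submitters' processing notes. Which annotation, strand setting and HTSeq version were used is not given in the sources used here, so reads of overlapping or antisense genes, and of the small nucleolar RNAs within EIF4A2 and EIF4G introns, may be shared. All columns were matched to a sample (0 without one), and the 92 ERCC rows were kept out of library sizes and tests.

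Counts were fitted with edgeR 4.0.16 in R 4.3.3 (TMM, filterByExpr, glmQLFit, glmQLFTest) in 1 model of 22 group means with 22 residual degrees of freedom. P-values were adjusted by the Benjamini-Hochberg method over 14534 genes, with a threshold of 0.05. SE is the log2 fold change over the square root of F. DESeq2 1.42.0, its size factors, ERCC scaling, no filter, a replicate block, the 28 early libraries alone and leaving out each library were alternatives. The fitting and permutation steps were tested on simulated data. The pair EIF4A1/EIF4A2 could not be computed. Ratios had 0.5 counts added, or 10 as an alternative.

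The deviations of same-numbered libraries from their group means correlated between arms at every time over 10090 genes (r 0.373 to 0.833 at 0 to 14 h and 0.263 to 0.666 at 16 to 22 h). The replicate numbers thus pair the arms, but the main fit and the main permutation test did not use this pairing. The replicate block fitted a common shift between replicate numbers over all times, not a pair at each time. Only the alternative permutation exchanged labels within same-numbered pairs. Libraries of a pair differed beyond counting noise (chi-square per gene 8.48 to 48.8). Depth was 10.9 to 25.3 gene counts per library in units of 1000000.

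Values by library are given for up to 3 members per class by adjusted p at 0 to 14 h, and for those with the smallest p for a course or for the arm difference by time; any member may be named with its fold change, and up to 4 genes per partner list. The members, classes, lists and tests were chosen with earlier results of these data known. Promoter windows are RefSeq's (GRCh38.p14), of which 49 of 60 members had one.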

Additional observations from a re-analysis of the deposited data

How the results depend on the processing

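The early counts of 31 lower and 4 higher members ran from 29 to 33 and 3 to 5 without 1 library, and the late counts of 26 and 7 from 25 to 28 and 5 to 8. Among the results for single genes named in the text, 2 calls were lost without the filter and 2 gained with the replicate block, which over all 54 members raised the calls to 36 from 35 at 0 to 14 h and to 40 from 33 at 16 to 22 h. Over all 14534 genes the block raised the calls to 7582 from 6019 at 0 to 14 h and to 9100 from 7713 at 16 to 22 h. Under ERCC scaling 0 members were lower and 0 higher at 0 to 14 h, where 4 of 14534 genes were lower and 44 higher. At 16 to 22 h 0 members were lower and 54 higher, where 0 of 14534 genes were lower and 14510 higher. With this scaling 54 members passed at each of 16, 18, 20 and 22 h. At 3, 6, 12 and 14 h, in both courses, and for 22 against 16 h in Tet plus, 0 passed. Shares of all genes under this scaling are not given for single times, courses or 22 against 16 h. All partner lists had 0 lower and 0 higher genes under ERCC scaling. ERCC scaling reversed EIF1 (0.026), EIF2AK1 (0.080), EIF2B2 (0.015), EIF4EBP2 (0.030), EIF4ENIF1 (0.11), EIF4G2 (0.051) and EIF5 (0.0067) at 0 to 14 h, all below the shifted median of all genes of 0.13, and EIF1 (3.599), EIF1AD (3.67), EIF2B1 (3.86), EIF3A (3.69), EIF3B (3.92), EIF4EBP1 (3.36), EIF4G1 (3.77), EIF5A (4.34), EIF5B (3.25), EIF6 (4.01) and MYCN (4.12) at 16 to 22 h, all below the shifted median of 4.40. EIF4ENIF1, near 0, ran from -0.060 to 0.023 without 1 library. With the replicate block 11 members were higher at 16 to 22 h, 7, 5, 16, 8, 3, 8 and 9 passed at 0, 3, 6, 8, 10, 12 and 14 h, 12 and 11 in the courses of Tet plus and Tet minus, 1 in each arm for 6 against 0 h and 12 against 8 h, 15 and 5 for 22 against 16 h in Tet plus and Tet minus, and 4 mTOR and MNK genes were higher; it changed no other count by over 1.5 times. In the permutation test, exchange only between same-numbered libraries brought EIF4E/EIF4E2 (0.14) past the threshold. Without the filter 0, 5, 0 and 0 passed at 3, 6, 12 and 14 h, 14 at 16 h, and 1 in each course. DESeq2 gave 2, 1, 1, 2 and 3 at 3, 8, 10, 12 and 14 h, and 7 and 1 for 22 against 16 h in Tet plus and Tet minus. Shares of all genes are not given for these counts. The 28 early libraries alone gave 0 at 3, 12 and 14 h, 2 in the Tet plus course and 1 in the Tet minus course. Without 1 library, counts ran from 0 to 1 at 0 h, 0 to 2 at 3 h, 0 to 11 at 6 h, 0 to 2 at 8 h, 0 to 0 at 12 h, 0 to 1 at 14 h, 5 to 15 at 16 h, 8 to 15 at 18 h, 12 to 20 at 20 h, 15 to 23 at 22 h, 1 to 5 and 1 to 4 in the Tet plus and Tet minus courses, 0 to 1 for 6 against 0 h in Tet plus, 0 to 3 for 22 against 16 h in Tet plus, 1 to 2 for higher initiation partners and 1 to 2 for lower genes of the eIF2 phosphorylation response, and the EIF4E/EIF4E2 difference from 0.091 to 0.19. Apart from these constructions (other scaling, other genes tested, fewer libraries), the cause was not tested. Rows under about 1 CPM, such as EIF5AL1, are limited by depth.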
